A study of Rattus norvegicus with 7 samples.

Results

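Cytochrome P450 genes outside the airway club cell set, the ethanol-inducible Cyp2e1 and the cholesterol synthesis gene Cyp51 were examined in isolated rat alveolar type 2 cells. They were taken as every gene on the array whose symbol starts with Cyp and a digit and whose probe set carries no second gene symbol, without Cyp2a3, Cyp2b1, Cyp2b2, Cyp2b15, Cyp2f4, Cyp4b1, Cyp2e1 and Cyp51. Each gene was represented by 1 probe set, the one with the brightest mean signal across all 7 arrays. The rule gave 42 of the 4736 genes measured. The ethanol group was 3 male Sprague Dawley rats given a Lieber-DeCarli liquid diet for 6 weeks, with 36% of calories as ethanol. The control group was 4 male rats of that strain on the isocaloric diet without ethanol for 6 weeks. Type 2 cells of both groups were isolated by immunoabsorption, and 1 array was hybridised per animal. The isolates are bulk samples, so fewer cells of a type and less RNA per cell cannot be told apart.

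Cytochromes P450 are heme enzymes that use molecular oxygen and electrons from NADPH to oxidise their substrates. Families 1 to 3 mainly handle drugs, pollutants and steroids, family 4 hydroxylates fatty acids and eicosanoids, and the higher families make or break down steroid hormones, sterols, vitamin D and retinoids. Most are best known from the liver or the steroid-producing glands, while in the lung P450 protein is known mainly from club cells and, at lower levels, from type 2 cells.

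All values are the deposited log2 expression values, and every difference is ethanol minus control on that scale. Sftpc, the surfactant gene that defines type 2 cells, lay at 12.41 to 12.78 in the 3 ethanol isolates and 12.76 to 12.84 in the 4 control isolates, so the label is borne out by its marker. Of the club cell list 4 of 7 genes were measured, 3 of them P450s left out by the rule, and the summed linear level was 1031.8 to 1087.1 with ethanol and 766.1 to 1402.5 in the controls (exact two-sided permutation p = 0.686). Only control 1, at 1402.5, exceeded the ethanol arrays, while control 2, 3 and 4, at 766.1, 782.2 and 907.5, lay below all of them. Scgb1a1, the secretoglobin that defines club cells, differed by -0.05. It gave the largest part of these sums, with a mean log2 value of 9.26, against 7.01 for the next highest, Cyp2f4. The 3 P450s of the list differed by 1.15 (Cyp2a3), 0.43 (Cyp2f4) and 0.13 (Cyp4b1). For mesenchymal markers, 8 of 8 measured, the sums were 330.6 to 364.5 with ethanol and 374.8 to 550.4 in the controls (exact permutation p = 0.0571, 0.4 after adjustment over 7 marker lists), so the groups did not overlap. Of the macrophage list 5 of 10 genes were measured, with sums of 2476.8 to 3878 with ethanol and 2918 to 4387.7 in the controls (exact permutation p = 0.286). These sums are nearly all Lyz2, which had a mean log2 value of 11.70, while the next highest, Cd14, had 5.97. They therefore describe Lyz2 rather than the 5 genes together. The type 2, endothelial and ciliated lists had exact permutation p-values of 0.686, 0.114 and 0.257. Hepatocyte markers, 5 of 6 measured, summed to 94.6 to 121.2 with ethanol and 104.5 to 137.8 in the controls, with albumin (Alb) at 4.15 to 4.31 with ethanol and 4.19 to 5.04 in the controls. The lowest of all deposited values was 1.65, so no marker was listed at 0. A value alone therefore does not show that a cell type was present. The part of other cells in the P450 values was not tested. In the titles all control arrays are numbered before the ethanol arrays, so diet and array number cannot be told apart.

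None of the 42 P450 genes differed between the groups at an adjusted p under 0.05 in limma, against 0.149% of all 8740 probe sets. The adjusted p of the 42 ran from 0.967 to 0.999. At an unadjusted p under 0.05 there were 2 genes, Cyp17a1 and Cyp7b1, which is 4.76% of the 42 against 4.37% of all genes, a share near that of the array as a whole. Both lay on the higher side, where 1.79% of all genes did, and 0 lay on the lower side, where 2.58% did. The groups did not overlap in 3 genes, Cyp17a1, Cyp7b1 and Cyp4f6, with all ethanol arrays above all controls in each. That is 7.14% of the 42, against 2.09% of all genes on the higher side, and 0 of the 42 lay apart on the lower side, against 2.83% of all genes.

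The differences of the 42 genes ran from -0.28 for Cyp3a23-3a1 to 0.58 for Cyp2a1, with a median size of 0.157 and a median standard error of 0.158. Over all genes the median size was smaller, at 0.110, with a median standard error of 0.146. Of the 42 genes, 27 had a value above 0, which is 64.3% against 46.6% of all genes. Their median was 0.11, against -0.014 for all genes. The 95% confidence intervals reached at most 1.42 upward, for Cyp2a1, and -0.78 downward, for Cyp2d4, so changes beyond these bounds lay outside the interval of every one of the 42 genes.

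**Figure D1:**
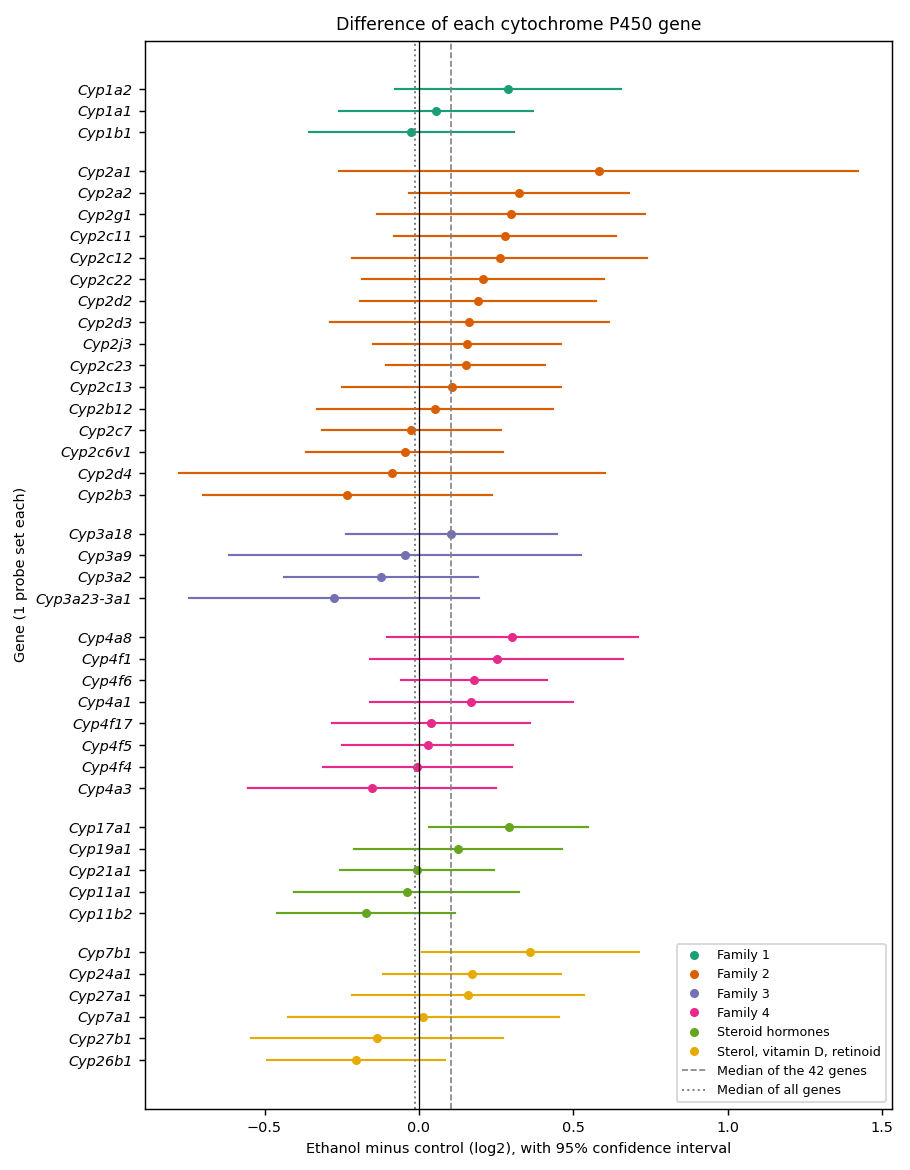
Each point is the ethanol minus control difference (log2) of 1 P450 gene with its 95% confidence interval from limma (3 ethanol and 4 control arrays), grouped by family or role. The intervals of Cyp17a1 and Cyp7b1 stay above 0 and the other 40 cross it; the dashed line is the median of the 42 genes (0.11) and the dotted line that of all genes (-0.014).

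Signals were mostly in the middle of the range. A middle signal alone does not show that a gene is expressed. The hepatocyte marker Alb lay at the 45.18 percentile of all probe sets, Cyp17a1 at 54.74 and the adrenal Cyp21a1 at 72.75. Whether such signals lie above background was not tested. Of the 42 probe sets, 21 had a mean above the median of all probe sets, 5 were in the lowest 25% and 3 in the highest 10%. With 1 probe set per gene, 57.5% of all genes lay above that median, against 50% of the 42. In the lowest 25% were 18.2% of all genes, against 11.9% of the 42, and in the highest 10% were 548 of 4736 genes. Levels of different probe sets do not compare transcripts, because each has its own probes, so the order that follows describes probe sets alone. Cyp27a1, the mitochondrial sterol 27-hydroxylase that opens the acidic route of bile acid synthesis, had the highest mean of the 42. It lay at 7.23, 7.11 and 6.93 in ethanol 2, 3 and 4, against 7.06, 7.03, 7.13 and 6.51 in control 1 to 4. The groups overlapped, and control 4 stood below the other 6 arrays. The difference was 0.16 (SE 0.167, limma adjusted p = 0.968), and with each array left out it ran from 0.020, without control 4, to 0.24.

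Cyp4f6, a family 4 enzyme whose subfamily hydroxylates leukotriene B4, came next and varied least among these bright probe sets. Its values were 7.01, 6.88 and 6.98 in ethanol 2, 3 and 4, against 6.81, 6.78, 6.74 and 6.76 in control 1 to 4. The groups were separate but close, at 6.95 ± 0.067 (SD, n = 3) with ethanol and 6.77 ± 0.030 (n = 4) in the controls. In limma the difference of 0.18 (SE 0.105) had an unadjusted p of 0.121 and an adjusted p of 0.967, and after quantile normalization it was 0.12. Without variance moderation its unadjusted p was 0.0046, while that of Cyp7b1 was 0.0785.

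Cyp2d4, a drug-oxidising P450 of the 2D subfamily, spread widely inside each group. It lay at 7.11, 6.66 and 6.06 in ethanol 2, 3 and 4, against 6.46, 7.41, 6.73 and 6.21 in control 1 to 4. The highest value of the ethanol group was thus on ethanol 2 and that of the controls on control 2, and the groups overlapped over most of their range (difference -0.09, SE 0.306).

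**Figure D2:**
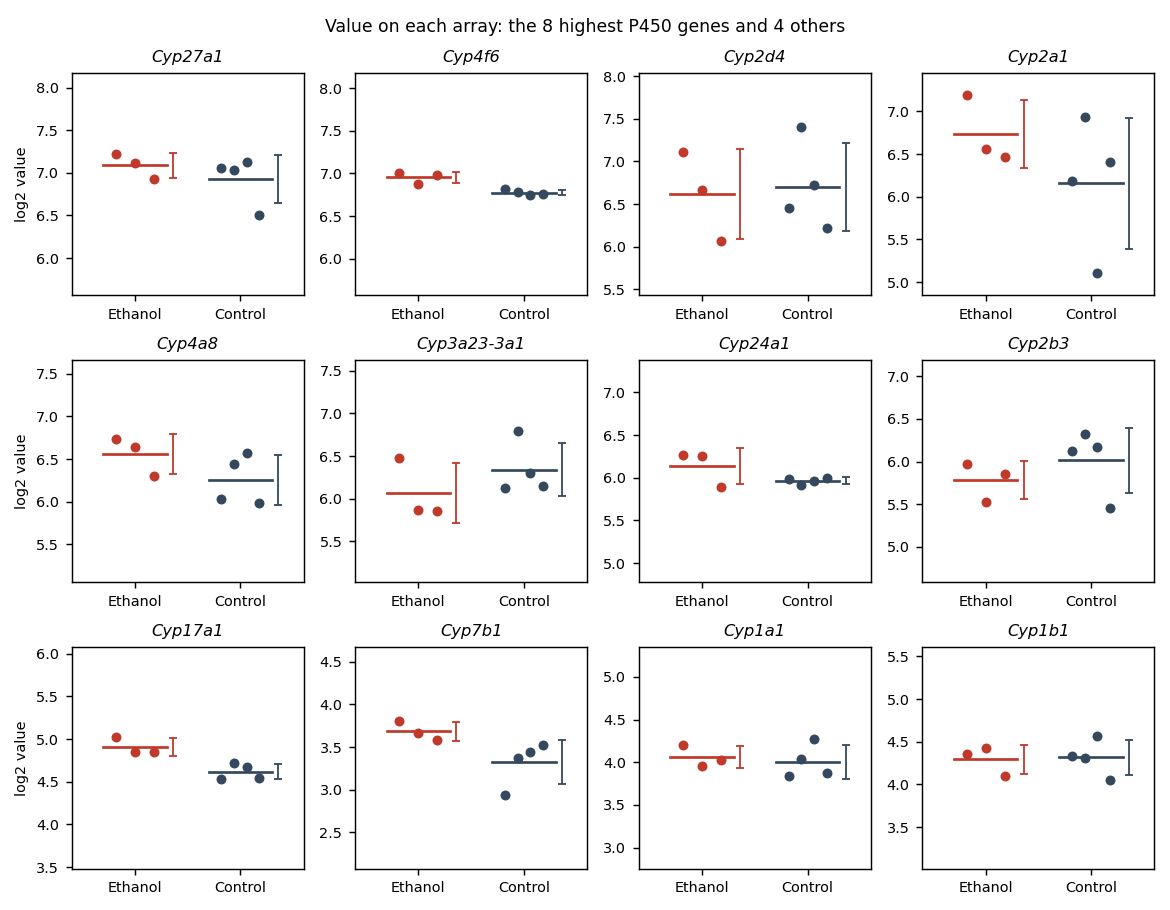
Log2 value on each array for the 8 P450 probe sets with the highest mean and for Cyp17a1, Cyp7b1, Cyp1a1 and Cyp1b1. Points are arrays (ethanol left, control right, in order of replicate number), horizontal lines are group means and bars beside them are SD; every panel spans the same log2 range. The groups are separate in Cyp4f6, Cyp17a1 and Cyp7b1.

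The family 1 genes are the classical targets of the aryl hydrocarbon receptor and oxidise polycyclic aromatic compounds. None of the 3 differed past the threshold. Cyp1a1 lay at 4.20, 3.95 and 4.03 in ethanol 2, 3 and 4, against 3.83, 4.04, 4.27 and 3.88 in control 1 to 4, a difference of 0.06 (95% confidence interval -0.26 to 0.37). All 3 ethanol values fell inside the control range. Cyp1b1, an estrogen and hydrocarbon hydroxylase, lay at 4.35, 4.42 and 4.10 in the ethanol arrays, against 4.34, 4.31, 4.57 and 4.06 in the controls (-0.02, interval -0.36 to 0.31). Here too the groups covered the same range. Cyp1a2, known as the caffeine-oxidising P450 of liver, was at 5.79, 5.34 and 5.36 with ethanol, against 4.97, 5.42, 5.34 and 5.09 in the controls (0.29, SE 0.163, limma adjusted p = 0.967). Only ethanol 2 exceeded the highest control, and without it the difference was 0.14.

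Family 2 was the largest group, with 16 genes, of which 12 had values above 0 and 0 passed an unadjusted p of 0.05. Cyp2a1, the testosterone 7-alpha-hydroxylase of rat liver, had the greatest difference of the 42. It lay at 7.19, 6.56 and 6.46 in ethanol 2, 3 and 4, against 6.18, 6.94, 5.10 and 6.40 in control 1 to 4. Control 3 was the lowest of all arrays and control 2 exceeded 2 of the 3 ethanol arrays. The difference of 0.58 (SE 0.374, limma adjusted p = 0.967) was 0.23 without control 3, 0.84 without control 2 (unadjusted p = 0.028) and 0.89 with array weights. Cyp2a2, a related steroid hydroxylase of male rat liver, was at 4.08, 4.31 and 3.90 with ethanol, against 4.04, 3.81, 3.49 and 3.75 in the controls (0.32, unadjusted p = 0.0703, and 0.21 to 0.42 with each array left out). J02669_s_at, a probe set annotated to both Cyp2a1 and Cyp2a2, had a smaller difference of 0.16 (limma unadjusted p = 0.31), and its groups overlapped.

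Cyp2a1 and Cyp2a2 lie beside each other in the GRCr8 RefSeq annotation, flanked by Cyp2a3 and Cyp2f4, which are lung P450s left out by the rule. In their neighbour Cyp2a3 the ethanol arrays stood at 7.44, 7.16 and 7.22, against 6.50, 6.16, 6.13 and 5.68 in the controls (1.15, limma adjusted p = 0.0777). Cyp2g1, known from olfactory mucosa and placed on the other side of Cyp2a3, had a difference of 0.30, which ran from 0.072 to 0.43 with each array left out. Its ethanol 2 value was 5.52, and ethanol 3 and 4, at 4.89 and 4.80, lay within the control range of 4.51 to 4.98. Cyp2b12 and Cyp2b3, further along the same cluster, had 0.05 and -0.23. Cyp2b3, a liver P450 of the subfamily whose best-known members respond to phenobarbital, lay at 5.97, 5.53 and 5.85 with ethanol, against 6.12, 6.32, 6.17 and 5.46 in the controls. Apart from control 4, every control lay above every ethanol array, and the difference was -0.42 without control 4 (unadjusted p = 0.0231). It was -0.11 without ethanol 3 (unadjusted p = 0.666) and -0.13 without control 2 (unadjusted p = 0.538). Whether probes for these near relatives read each other's transcripts was not tested.

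Subfamily 2C holds the sex-dependent liver P450s of the rat, and 5 of its 7 genes had values above 0, with a median of 0.15. Cyp2c11, the male liver form, was at 5.69, 5.32 and 5.11 in ethanol 2, 3 and 4, against 4.88, 5.25, 5.17 and 5.08 in control 1 to 4 (0.28, unadjusted p = 0.115). That difference was 0.12 without ethanol 2 (unadjusted p = 0.451) and 0.41 without ethanol 4 (unadjusted p = 0.038). Cyp2c12, the female liver form, had a dim probe set, with ethanol 2 at 4.07 and the other 6 arrays at 3.06 to 3.55. Its difference of 0.26 ran from -0.0054, without ethanol 2, to 0.43 with each array left out. Cyp2c7 was the dimmest of the 42, at 1.93 to 2.24 over all arrays.

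Cyp2j3 and Cyp2c23 are known as epoxygenases of arachidonic acid, as is Cyp2c11. Cyp2j3 lay at 4.44, 4.22 and 4.13 with ethanol, against 3.89, 4.28, 4.16 and 4.10 in the controls, with overlap (0.15, SE 0.135). Cyp2c23 had a difference of 0.15 as well, with ethanol values of 5.65 to 5.88 and control values of 5.50 to 5.68. The drug-oxidising Cyp2d2 was at 0.19, and at 0.063 to 0.39 with each array left out. Its relative Cyp2d3 was at 0.16, and ran from -0.019, without ethanol 2, to 0.33, so its sign turned in that omission only.

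Family 3A enzymes, which hydroxylate steroids and many drugs and respond to the pregnane X receptor in liver, had 1 of 4 values above 0 and a median of -0.084. Cyp3a23-3a1, the glucocorticoid-inducible form, lay at 6.47, 5.87 and 5.86 in ethanol 2, 3 and 4, against 6.12, 6.79, 6.30 and 6.15 in control 1 to 4. Of the ethanol arrays, only ethanol 2 reached the control range. The difference of -0.28 (SE 0.209, limma adjusted p = 0.967) had an unadjusted p of 0.219. With each array left out it ran from -0.48 without ethanol 2 (unadjusted p = 0.0424) to -0.12 without control 2 (unadjusted p = 0.499), with -0.18 without ethanol 3 and -0.17 without ethanol 4. Cyp3a9, known from brain and olfactory tissue, was at 5.21, 5.23 and 5.80 with ethanol, against 5.08, 5.07, 5.69 and 6.00 in the controls (-0.05). Cyp3a2, the male-predominant liver form, was dim, at 2.48 to 2.80 with ethanol and 2.61 to 3.01 in the controls.

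Family 4 had 8 genes, 6 with values above 0, a median of 0.10 and 0 past an unadjusted p of 0.05. Cyp4a8, of the fatty acid omega-hydroxylase subfamily that is induced by PPAR-alpha in liver, lay at 6.73, 6.65 and 6.30 with ethanol, against 6.03, 6.44, 6.57 and 5.98 in the controls. Ethanol 2 and 3 exceeded every control and ethanol 4 did not (0.30, SE 0.181, unadjusted p = 0.127, and 0.21 to 0.43 with each array left out). Cyp4a1 and Cyp4a3, of the same subfamily, had differences of 0.17 and -0.15.

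Besides Cyp4f6, the leukotriene-hydroxylating 4F genes were dim to middling. Cyp4f1 was at 4.78, 4.41 and 4.10 in ethanol 2, 3 and 4, against 4.08, 4.47, 4.19 and 3.97 in control 1 to 4 (0.25, SE 0.182, unadjusted p = 0.199). Of the ethanol arrays, only ethanol 2 exceeded the highest control. The difference was 0.077 without ethanol 2 (unadjusted p = 0.674) and 0.42 without ethanol 4 (unadjusted p = 0.0499). Cyp4f4 lay at 4.32 to 4.62 with ethanol and 4.31 to 4.65 in the controls (-0.01, 95% confidence interval -0.31 to 0.30). Cyp4f5 lay at 4.15 to 4.38 with ethanol and 4.05 to 4.34 in the controls (0.03, interval -0.25 to 0.30). Cyp4f17 had a difference of 0.04.

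Among the 5 genes of steroid hormone synthesis, Cyp17a1, the hydroxylase and lyase on the way to androgens, had the lowest p of all 42 genes. Its values were 5.02, 4.85 and 4.85 in ethanol 2, 3 and 4, against 4.54, 4.72, 4.67 and 4.55 in control 1 to 4. The 3 ethanol arrays thus lay above the 4 controls by a narrow gap. The means were 4.91 ± 0.101 with ethanol (n = 3) and 4.62 ± 0.090 in the controls (n = 4), a 1.22-fold difference of 0.29 on the log2 scale (SE 0.115, limma unadjusted p = 0.0311, adjusted p = 0.967). With each array left out it ran from 0.23 to 0.32, and its unadjusted p was not under 0.05 in 4 of the 7 omissions. Those were without ethanol 2 (0.112), ethanol 3 (0.053), control 1 (0.0691) and control 4 (0.0707). Cyp11a1, which cleaves the side chain of cholesterol in the first step of steroid synthesis, was at 4.75, 4.53 and 4.36 with ethanol, against 4.23, 4.77, 4.68 and 4.68 in the controls (-0.04). Cyp19a1, the aromatase, was at 3.88 to 4.23 with ethanol and 3.67 to 4.14 in the controls (0.13). Cyp11b2, the aldosterone synthase, was at 4.08 to 4.18 with ethanol and 4.06 to 4.45 in the controls (-0.17). Cyp21a1, the adrenal steroid 21-hydroxylase, had nearly equal means, 5.38 ± 0.092 with ethanol (n = 3) and 5.39 ± 0.068 in the controls (n = 4), with an interval of -0.26 to 0.24 on the difference.

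Of the 6 genes for sterols, bile acids, vitamin D and retinoids, 4 had values above 0. Cyp7b1, the oxysterol 7-alpha-hydroxylase, lay at 3.80, 3.67 and 3.58 in ethanol 2, 3 and 4, against 2.94, 3.37, 3.44 and 3.53 in control 1 to 4. The groups did not overlap, though the lowest ethanol array and the highest control were only just apart, and the probe set was dim. Its means were 3.68 ± 0.114 with ethanol (n = 3) and 3.32 ± 0.260 in the controls (n = 4), a difference of 0.36 (SE 0.157, limma unadjusted p = 0.0455, adjusted p = 0.967). With each array left out it ran from 0.23, without control 1 (unadjusted p = 0.0996), to 0.43, without control 4 (unadjusted p = 0.0278). In the other 5 omissions the unadjusted p lay between 0.0507 and 0.136. Cyp7a1, the liver's rate-limiting bile acid enzyme, was at 0.01.

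Cyp24a1, which inactivates vitamin D, lay at 6.27, 6.25 and 5.89 with ethanol, against 5.99, 5.91, 5.96 and 6.00 in the controls. The 4 controls were tightly grouped, and ethanol 2 and 3 stood above them while ethanol 4 stood below (0.17, SE 0.128, unadjusted p = 0.21). The difference was 0.30 without ethanol 4 (unadjusted p = 0.0411), 0.11 without ethanol 2 (unadjusted p = 0.484) and 0.11 without ethanol 3 (unadjusted p = 0.476). The other probe set of Cyp24a1, L04619_s_at, was dimmer, with a mean of 4.05. Its difference was -0.0063 (limma unadjusted p = 0.963), so the 2 probe sets of this gene lay on different sides of 0. Cyp27b1, which makes active vitamin D, was at -0.14. Cyp26b1, which degrades retinoic acid, was at 4.11, 4.22 and 4.46 with ethanol, against 4.58, 4.51, 4.44 and 4.33 in the controls (-0.20, SE 0.128, unadjusted p = 0.143). Of the genes with negative values it had the lowest p.

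Within each group, the 42 genes tended to be high or low on the same arrays. In the ethanol group, ethanol 2 held the highest value in 29 of the 42 genes, which is 69% against 41.6% of all genes, and ethanol 4 the lowest in 31, which is 73.8% against 41.1% of all genes. In the controls, control 2 held the highest value in 20 of 42 genes (47.6%, against 36.2% of all genes), and control 3 in 14 (33.3%, against 20% of all genes). The median of the 42 deviations from the group mean was 0.18, -0.03 and -0.16 in ethanol 2, 3 and 4. In control 1 to 4 it was -0.13, 0.14, 0.07 and -0.10. For all genes the medians stayed between -0.026 and 0.027. The spread of all values on the array moved with this: the SD was 1.34, 1.39 and 1.46 in ethanol 2, 3 and 4, and 1.40, 1.29, 1.36 and 1.44 in control 1 to 4. Within each group the array with the lowest SD was the one on which the P450 genes stood highest. Between the groups the median difference of the 42 was 0.11, and without ethanol 2 it was 0.051. With the array's SD as a covariate, 9 of the 42 genes had an unadjusted p under 0.05, all on the higher side, and 8.74% of all probe sets did, while 0 of the 42 passed after adjustment. In that fit, which was added after seeing the data, the median difference of the 42 was 0.14. Apart from it, the part of array spread in the P450 values was not tested.

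**Figure D3:**
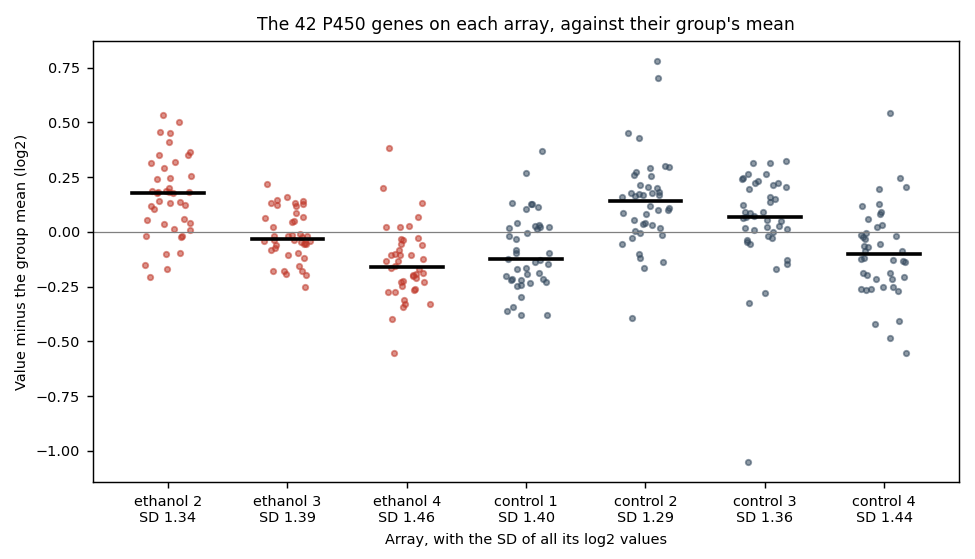
Each point is 1 of the 42 P450 genes on 1 array, as its log2 value minus the mean of its group; black lines are medians, and the SD of all log2 values is given under each array. The medians are highest on ethanol 2 (0.18) and control 2 (0.14), the arrays with the lowest SD of their groups.

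Of the 42 genes, 17 had several probe sets, and in 7 of the 17 these gave values on both sides of 0. Cyp3a23-3a1 disagreed most, with differences of -0.28 for L24207_i_at, which stood for the gene, -0.36 for L24207_r_at, 0.11 for D13912_s_at and 0.30 for X64401cds_s_at. The direction given above for this gene therefore rests on the choice of probe set. Cyp2c11 ran from -0.13 to 0.28 and Cyp2c13 from -0.30 to 0.11 over their probe sets. Cyp1b1 had 3 probe sets between -0.09 and -0.02 and X83867cds_s_at at 0.27.

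In other genes the probe sets stayed on the same side. The second probe set of Cyp27a1, M38566mRNA_s_at, was at 0.25, and the 3 probe sets each of Cyp4a1 and Cyp2c23 lay at 0.13 to 0.21 and at 0.11 to 0.19. The second probe set of Cyp4a8, rc_AA893011_at, was at 0.10 (limma unadjusted p = 0.59), against 0.30 for the one that stood for the gene. In Cyp2j3 the probe set U39943_s_at lay at 3.57, 3.44 and 3.27 with ethanol, against 2.69, 3.11, 3.20 and 3.06 in the controls, so its groups did not overlap (0.41, limma unadjusted p = 0.0217, adjusted p = 0.967). That probe set was dimmer than the one that stood for the gene. A further 9 probe sets annotated to several of these P450s or their close relatives, which name no gene here, had differences of -0.17 to 0.16. Among these 9, J02669_s_at of Cyp2a1 and Cyp2a2 was at 0.16. X62086mRNA_s_at of Cyp3a2 and Cyp3a23-3a1 was at 0.07, with a mean of 6.44.

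**Figure D4:**
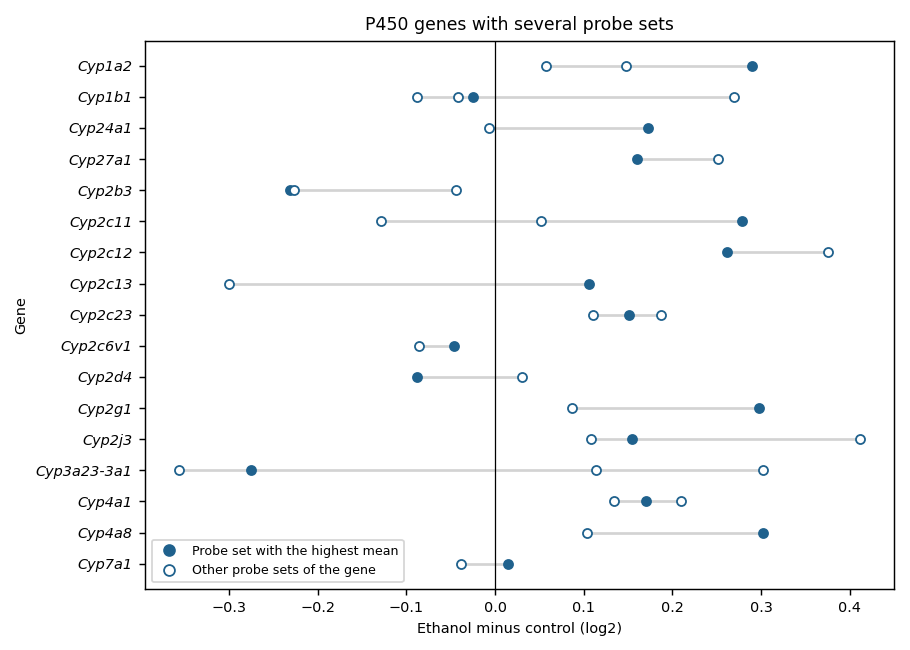
Ethanol minus control differences (log2) of all probe sets of the 17 P450 genes with more than 1, each point a probe set; filled points are the probe sets with the highest mean, which stood for the gene. Cyp3a23-3a1 spans -0.36 to 0.30.

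P450s depend on electron donors and heme supply, and mitochondrial forms that act on cholesterol depend on its import as well. Of 11 measured genes of this kind, 0 passed in limma after adjustment and 4 had values above 0. At an unadjusted p under 0.05 there were 2 of the 11, both on the lower side, where 2.58% of all genes lay. Fdx1, the ferredoxin that passes electrons to mitochondrial P450s such as Cyp11a1, Cyp24a1 and Cyp27a1, lay at 4.74, 5.20 and 5.77 in ethanol 2, 3 and 4, against 5.56, 5.81, 5.91 and 5.94 in control 1 to 4 (-0.57, unadjusted p = 0.0294, adjusted p = 0.967). Ethanol 4 lay within the control range. Star, which carries cholesterol to the inner mitochondrial membrane, was at 4.42, 4.15 and 4.44 with ethanol, against 4.53, 5.17, 4.47 and 5.18 in the controls, with no overlap (-0.50, unadjusted p = 0.035, adjusted p = 0.967). Por, the NADPH reductase of microsomal P450s, was at 0.08, and Alas1, the first enzyme of heme synthesis, at 0.47 with an overlap of the groups.

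Receptors that control P450 genes, with the epoxide hydrolases, gave 18 measured genes of 23, 9 above 0 and 9 below, with a median of 0.0068 and 0 at an unadjusted p under 0.05. The aryl hydrocarbon receptor gene Ahr lay at 6.49 to 6.87 with ethanol and 6.58 to 7.00 in the controls (-0.12), and its partner Arnt was at 0.17. Ppara, the receptor behind family 4A induction, was at 0.26 (unadjusted p = 0.105). Vdr, the vitamin D receptor gene, was at -0.02 and Rara, a retinoic acid receptor gene, at 0.02. The P450s with other symbols, thromboxane synthase (Tbxas1) and prostacyclin synthase (Ptgis), were at -0.11 and 0.05.

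The 7 measured P450 genes that the rule left out had a median difference of 0.43, with 6 of 7 above 0 and 3 at an unadjusted p under 0.05 (Cyp2a3, Cyp2b2 and Cyp2b15), against 0.11 and 2 of 42 in the genes described here. All 3 lay on the higher side, which is 42.9% of the 7, against 1.79% of all genes. The contrast between the 7 and the 42 genes was not tested.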

How the data were processed

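The authors deposited 1 log2 expression value per probe set and array, with 8799 probe sets. The log2 scale was read from the values (1.65 to 12.84), since a natural log of a 16-bit signal ends at 11.09. Per the labels' protocols, RNA was extracted with Trizol and biotinylated after the Affymetrix manual. Background correction, summarisation and normalization are not given in the sources used here, and a method that pulls dim signals together would make their differences look smaller. After removal of 59 array controls, 8740 probe sets were tested. Genes were named from the platform annotation, with 7006 probe sets of 1 symbol, 308 of several and 1426 of none. All 42 member symbols matched RefSeq (GRCr8) by Entrez identifier, unchanged.

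Differences were tested with limma 3.58.1 (statmod 1.5.0, R 4.3.3), with diet group as the term, empirical Bayes variance and Benjamini-Hochberg adjustment over all probe sets at 0.05, two-sided. Marker sums of linear values used exact permutation over 35 divisions, where the smallest p is 0.0286. Precision is limited by having 7 arrays. The limma p-values set each difference against the spread between arrays of the same group. With 1 array per animal, spread from animals, isolations and arrays cannot be told apart. The genes, lists and roles were chosen with earlier results of these data known. By rule, values on the arrays are given for the 8 highest probe sets, the 5 lowest p-values in each direction and a list of lung- and ethanol-related P450s; the other genes and probe sets described were picked after their values were seen. Ethanol and control arrays share replicate numbers 2 to 4, but same-numbered arrays did not all deviate together (correlations of 0.43, 0.067 and 0.43). Figures were drawn with matplotlib 3.10.9.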

Additional observations from a re-analysis of the deposited data

Results flagged for a closer look

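In 3 of the 42 P450 genes, 1 control array stood far from the other 3, by the gap to its nearest neighbour as a share of the control range; chance gives about 1 in 20. That is 7.14% of the 42, against 5.38% of all genes by the same measure, a share near that of the array as a whole. Control 4 was low for Cyp27a1, at 6.51, where the remaining controls held 7.03 to 7.13. Control 2 was high for Cyp2d3, at 5.55, where the remaining controls held 4.98 to 4.99. For Cyp11a1, control 1 was low, at 4.23, with 4.68 to 4.77 in its group mates.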

How the results depend on the processing

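None of the 42 genes passed the adjusted threshold in limma under any of the 17 alternatives; the lowest adjusted p was 0.269, with array weights, and 0.445 elsewhere. The count at an unadjusted p under 0.05, 2 of 42, was 1 with either filter on dim probe sets (37 and 21 genes left), 6 with array weights (11.8% of all probe sets), 9 with array spread as a covariate, added after seeing the data, and 0 to 6 with each array left out (0 without ethanol 3, 1 without ethanol 2, control 1 or control 3, 2 without control 2 or control 4, 6 without ethanol 4). Of the probe sets left by the filters at the 25 and 50 percentiles, 4.79% and 4.99% were under 0.05. Of all probe sets, 8.74% were under 0.05 with array spread as a covariate. With arrays left out, 2.99% were under 0.05 without ethanol 3, 4.27% without ethanol 4 and 9.03% without control 4, and 2.64% to 4.71% without each other array. The median difference stayed above 0, from 0.044 without control 4 to 0.17 without ethanol 4. The count of all probe sets, 13, was 0 without variance moderation (367 at unadjusted p under 0.05, with Cyp4f6 in place of Cyp7b1 among the 42) and 23 with the replicate block. With that replicate block, 2 of the 42 were at unadjusted p under 0.05, which is 4.76% against 8.12% of all probe sets, and they were Cyp2a2 and Cyp3a23-3a1 in place of Cyp17a1 (0.0591) and Cyp7b1 (0.11); 2 of the 3 ethanol arrays correlated best with the control of their own number. Of 410 values of 25 named genes under these alternatives, 27 changed sign, in 7 genes, and 0 of these were genes at unadjusted p under 0.05. With each array left out, 20 of the 42 genes stayed above 0 and 7 below. No detection calls were used, and dim probe sets limit what could be seen.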
